A study of Homo sapiens with 8 samples.

Results

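Small nucleolar RNA (snoRNA) host genes are transcribed to make the snoRNAs that lie in their introns. Many snoRNAs guide the chemical modification of ribosomal RNA, those of the box C/D class for ribose methylation and those of the box H/ACA class for pseudouridylation. The snoRNA is trimmed out of the excised intron, while the exons are spliced into a polyadenylated RNA. In many hosts this RNA is a long noncoding RNA (lncRNA) with short reading frames, and nonsense-mediated decay (NMD), the pathway that degrades transcripts with early stop codons, keeps its level low. Many hosts also start with a run of pyrimidines, the terminal oligopyrimidine (TOP) motif that they share with the mRNAs of ribosomal proteins.

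The 10 host lncRNAs described here are SNHG1, SNHG3, SNHG5, SNHG6, SNHG8, SNHG12, SNHG15, SNHG16, SNHG29 and GAS5, among 60725 genes in the count table, of which 33854 had at least 1 read. They were listed by name and chosen on the basis of results from these same libraries, so their values are given as a description, with no p-value. All 10 had enough reads to be tested and all are annotated as lncRNA. RefSeq places 37 snoRNA genes inside them, 28 named as box C/D and 8 as box H/ACA, with 11 in GAS5 and 9 in SNHG1, so the name of host fits each gene. SNHG12 is the only one that carries both named classes besides GAS5, which has 10 box C/D snoRNAs and SNORA103.

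The study lowered NELFE or NELFB, subunits of the negative elongation factor that holds RNA polymerase II shortly after it leaves a promoter, in human HAP1 cells, a near-haploid line derived from a chronic myeloid leukaemia. All groups came from a single clone that expressed dCas9-KRAB, a catalytically dead Cas9 fused to a repressor domain, from an EF1a promoter, and all were transduced with a guide RNA lentivirus, selected with puromycin and collected 144 h later. The guide RNA was directed at ADAM22 in the control cells (3 libraries), at NELFE in one knockdown (3 libraries) and at NELFB in the other (2 libraries). Polyadenylated RNA was sequenced as single-end reads of 65 bases, and 22037423 to 24444185 reads per library were assigned to genes.
Levels are given as CPM, the reads of a gene scaled to a common library size after normalization for composition, with ± for the standard deviation (SD) over the libraries of a group (n = 3 for control and for NELFE, n = 2 for NELFB). Changes are given as log2 fold changes with their standard error (SE). A gene is called changed when its adjusted p is under 0.05 in a fit across all tested genes, by the quasi-likelihood test of edgeR and the Benjamini-Hochberg method. The combined comparison sets the 5 knockdown libraries against the 3 control libraries, and the separate comparisons set each knockdown against the same 3 control libraries. Where a NELFB library was left out, the NELFB group held a single library, and the spread came from the other groups. Calls counted in such fits of the NELFB knockdown are no measure of stability. In bulk RNA, fewer cells of a type and less RNA per cell cannot be told apart.

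The targets of the 2 knockdowns and the identity of the cells were checked first. Control cells had 49.3 ± 1.24 CPM of NELFE, and its knockdown left 2.59 ± 0.341 CPM. For NELFB the values were 75.4 ± 3.32 and 2.92 ± 0.207 CPM. Each knockdown label therefore matched its target. The level of ADAM22, the target of the control guide, is not given here. HAP1 cells have lost most blood cell features. CD33, SPN and PTPRC, markers of white blood cells, had group means of at most 0.131 CPM. CD34, a marker of blood stem cells, stood at 0.0990 ± 0.0482 CPM in control cells, 0.742 ± 0.527 CPM after NELFE knockdown and 1.84 ± 1.33 CPM after NELFB knockdown, and was called higher (adjusted p = 0.0142, edgeR). Of these blood markers CD34 was the only one with enough reads for the test, and its part in the results below was not tested. BCR and ABL1, whose fusion the parent leukaemia carries, were both expressed, at 21.2 ± 0.377 and 20.6 ± 3.14 CPM in control cells, and ABL1 was called higher over both knockdowns (log2 fold change 1.05, SE 0.17, adjusted p = 0.0019, edgeR).

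The starts of the hosts are shown because the TOP motif is read from the first bases of the transcript. In each line below, 10 bases before the annotated start are followed by 20 bases from it (GRCh38, strand of the gene), and capitals mark a run that opens exactly at the start with a C and goes on with at least 4 further bases that are each C or T. Only the strand of the gene was searched. First come 2 sequences from GENCODE v44 that hold such a run, then 2 from RefSeq starts, then 2 hosts without one. Hosts with a run are shown from a source in which it was found.
GAS5, GENCODE (chr1:173867970-173867999, minus strand): accatactgtCTTTTCgaggtaggagtcga
SNHG29, GENCODE (chr17:16439027-16439056, plus strand): aaggtgtgacCTTTTCattcccgttgttat
SNHG12, RefSeq (chr1:28581854-28581883, minus strand): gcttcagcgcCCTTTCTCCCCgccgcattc
SNHG5, RefSeq (chr6:85678714-85678743, minus strand): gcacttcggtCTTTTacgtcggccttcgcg
SNHG1, GENCODE (chr11:62855903-62855932, minus strand): gggcctctgcggcatggtatttaatcgtct
SNHG3, GENCODE (chr1:28505970-28505999, plus strand): cacgcgcaatagacattccaggacttccgg
A run at the start was found in 3 of the 9 hosts examined at their GENCODE canonical start, against 3.72% of 38912 protein-coding and lncRNA genes and 58 of 81 ribosomal protein genes (71.6%). At their GENCODE starts, GAS5 and SNHG29 open with the same 6 bases. When the run could open within 5 bases of the start, 4 of 9 hosts held one, SNHG8 being added, against 20.5% of all these genes. At RefSeq starts the count was 2 of 8, against 4.07% of 35116 genes. GAS5 and SNHG29 held no run at their RefSeq starts, and SNHG5 held none at its GENCODE start. Of the hosts examined in both sources, only SNHG12 held a run in each. The starts of GAS5 and SNHG12 differ by more than 1000 bases between the sources, so a missing run says only that these letters are not at that position.

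Of the 10 hosts, 9 were called lower in both knockdowns, and SNHG3 was lower without being called. In the combined comparison 9 of 10 were called lower, with SNHG3 as the exception, where 12.7% of all 16367 tested genes were called lower. After NELFE knockdown 9 of 10 were called lower against a background of 7.04%, and after NELFB knockdown 9 of 10 against 8.88%, out of 16852 genes tested. All 5 knockdown libraries lay below all 3 control libraries for 9 of 10 hosts and for 14.0% of all genes. The median log2 fold change of the hosts was -0.83 in the combined comparison, -0.77 after NELFE knockdown and -0.91 after NELFB knockdown, while the median of all tested genes was -0.002, -0.005 and -0.003. A combined change at or below the hosts' median was reached by 258 of the 16367 genes (1.58%). These counts describe genes that were chosen with such results known and are no test of the group.
Together the 10 genes took 0.175% ± 0.0023 of the counted reads in control cells, 0.106% ± 0.0089 after NELFE knockdown and 0.0960% ± 0.0038 after NELFB knockdown. The library with the highest share among the knockdowns was NELFE replicate 3, at 0.115% (95% Wilson interval 0.114 to 0.117, counting error only). It was the highest of the 5 knockdown libraries for 9 of the 10 hosts, and control replicate 1 was the lowest of the 3 control libraries for 9 of 10.

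**Figure D1:**
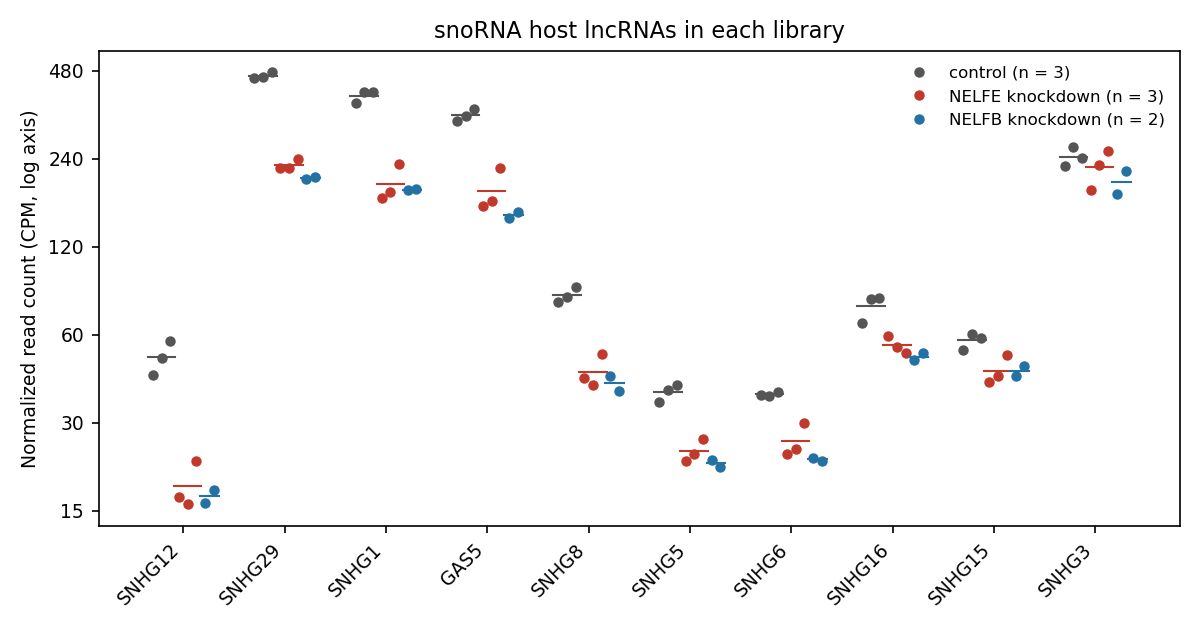
Normalized read count (CPM, log axis) of each snoRNA host lncRNA in every library, with points for single libraries and short lines for group means, ordered from the largest to the smallest combined decrease. For 9 of 10 genes the 5 knockdown points lie below the 3 control points, and for SNHG3 they mix.

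Levels between genes are compared per length, as TPM (reads per base of exon, scaled to a common sum) over the merged exons of GENCODE v44. In control cells SNHG1 had the highest level at 406 ± 16.1 TPM, followed by GAS5 at 281 ± 9.44, SNHG3 at 245 ± 17.7 and SNHG29 at 212 ± 1.83 TPM. The ranges of these 4 genes over the control libraries did not overlap. SNHG6, SNHG15, SNHG16, SNHG8 and SNHG12 followed between 60.8 and 48.3 TPM, and each of them overlapped with its neighbour in this order. SNHG5 was the lowest at 12.4 ± 0.711 TPM. The order depends on the length used. With the longest transcript of each gene, SNHG29 came first at 418 ± 2.29 TPM, before GAS5 at 321 ± 8.37 and SNHG1 at 313 ± 10.5 TPM. SNHG12 moved from rank 9 to rank 5, at 75.2 ± 8.49 TPM. In GENCODE v44, 62.4% of the exon bases of SNHG6, 39.6% of those of SNHG8 and 31.1% of those of SNHG16 overlap other genes. Reads that overlap several genes were not counted, but the counting used Gencode v24, where the overlaps may differ, and their part in these levels was not tested.

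Among the hosts of box C/D snoRNAs, the 3 most abundant fell to about the same extent. SNHG1 (chromosome 11, 62851978 to 62855953), which carries the SNORD22 and SNORD25 to SNORD31 series, was at 373, 407 and 405 CPM in the control libraries, at 177, 185 and 231 after NELFE knockdown and at 188 and 189 CPM after NELFB knockdown. Every knockdown library was far below the lowest control library, and NELFE replicate 3 was the highest of them. The combined log2 fold change was -1.03 (SE 0.084), a level of 49.1% of control.
SNHG29 (chromosome 17, 16438767 to 16480249), host of SNORD49A, SNORD49B and SNORD65, had 454, 459 and 475 CPM in control cells, 224, 223 and 240 CPM after NELFE knockdown and 206 and 208 CPM after NELFB knockdown. The replicates lay close together and the 3 groups did not overlap. The combined log2 fold change was -1.07 (SE 0.066), or 47.6% of control.
GAS5 (chromosome 1, 173858559 to 173868882), named for its accumulation in growth-arrested cells and host of the SNORD74 to SNORD81 series, was at 323, 337 and 356 CPM in control cells, 165, 173 and 223 CPM after NELFE knockdown and 151 and 158 CPM after NELFB knockdown. The 3 groups were separate here too, with the NELFB libraries lowest. GAS5 fell to 51.5% of control in the combined comparison (log2 fold change -0.96, SE 0.11).

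SNHG5, SNHG6 and SNHG16, less abundant hosts with box C/D snoRNAs alone, fell less. SNHG12, which carries a box C/D snoRNA beside box H/ACA ones, fell more and is described below. SNHG5 (chromosome 6, 85650491 to 85678932), host of SNORD50A and SNORD50B, was at 35.3, 39.0 and 40.6 CPM in control cells, 22.2, 23.4 and 26.5 CPM after NELFE knockdown and 22.4 and 21.2 CPM after NELFB knockdown. Control and knockdown libraries were well apart, and the combined log2 fold change was -0.73 (SE 0.088). SNHG6 (chromosome 8, 66920561 to 66926398), host of SNORD87, had 37.3, 37.1 and 38.2 CPM in control cells, 23.4, 24.4 and 30.1 CPM after NELFE knockdown and 22.8 and 22.3 CPM after NELFB knockdown. Its control libraries were nearly equal, and both NELFB libraries lay below all 3 NELFE libraries. The change was -0.61 (SE 0.098). SNHG16 (chromosome 17, 76557727 to 76670985), host of the SNORD1 genes, stood at 65.8, 79.4 and 80.0 CPM in control cells, 59.7, 54.7 and 52.1 CPM after NELFE knockdown and 49.1 and 52.0 CPM after NELFB knockdown. Here NELFE replicate 1 came within a few CPM of control replicate 1, and the change was -0.49 (SE 0.086).

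Hosts of box H/ACA snoRNAs held both the largest and the smallest change. SNHG12 (chromosome 1, 28578538 to 28583132) carries SNORA16A, SNORA44, SNORA61 and the box C/D snoRNA SNORD99. It was at 43.7, 50.1 and 57.3 CPM in control cells, 16.8, 15.8 and 22.3 CPM after NELFE knockdown and 16.0 and 17.7 CPM after NELFB knockdown. The control libraries spread widely, yet the highest knockdown library was far below the lowest of them. The combined log2 fold change was -1.51 (SE 0.12), which left 35.2% of the control level and ranked 24th from the bottom among the 16367 genes. SNHG8 (chromosome 4, 118278703 to 118285316), host of SNORA24, had 78.1, 81.1 and 87.8 CPM in control cells, 42.8, 40.3 and 51.5 CPM after NELFE knockdown and 43.4 and 38.5 CPM after NELFB knockdown. It fell clearly in all 5 libraries, to 52.6% of control (log2 fold change -0.93, SE 0.091).
SNHG15 (chromosome 7, 44983019 to 44986961), host of SNORA9, was at 53.2, 60.6 and 58.8 CPM in control cells, 41.4, 43.5 and 51.0 CPM after NELFE knockdown and 43.3 and 47.0 CPM after NELFB knockdown. All knockdown libraries lay below the control libraries, but NELFE replicate 3 and control replicate 1 were close, and the 2 knockdowns overlapped. Its change of -0.35 (SE 0.081) was the smallest that was called, and without control replicate 2 it was no longer called (8 of 10 hosts). In each knockdown taken separately, SNHG15 was called lower in 8 of the 15 alternatives. SNHG3 (chromosome 1, 28505980 to 28510892), host of SNORA73A and SNORA73B, was at 228, 264 and 242 CPM in control cells, 188, 229 and 256 CPM after NELFE knockdown and 182 and 219 CPM after NELFB knockdown. The groups overlapped, with NELFE replicate 3 above 2 of the control libraries. The log2 fold change of SNHG3 was -0.18 (SE 0.11), and without NELFE replicate 3 it was called, at -0.26 (10 of 10 hosts).

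The comparisons of the 2 knockdowns share the control libraries, so agreement between their changes is no independent support. The fitted changes after NELFE and after NELFB knockdown were -1.001 and -1.07 for SNHG1, -1.01 and -1.16 for SNHG29, -0.86 and -1.13 for GAS5, and -1.46 and -1.58 for SNHG12. For SNHG8 they were -0.88 and -1.01, for SNHG5 -0.67 and -0.81, for SNHG6 -0.53 and -0.74 and for SNHG16 -0.44 and -0.57. SNHG15 had nearly the same change in both (-0.35 and -0.35), and SNHG3 had -0.12 and -0.29, called in neither. Compared directly, the fitted differences between NELFE and NELFB knockdown lay between 0.005 (SNHG15) and 0.275 (GAS5, SE 0.12) on the log2 scale, all above 0, as were 48.7% of those of all genes. Without NELFE replicate 3 those of SNHG1, SNHG12 and SNHG15 were at -0.06, -0.047 and -0.089, and without NELFB replicate 1 that of SNHG15 was at -0.039. None of the 10 differences was called by edgeR, where 0.315% of the 16852 genes were, or by DESeq2, and 1 of the 10 had an unadjusted p under 0.05 in edgeR, as had 863 of the 16852 genes. For SNHG6, SNHG16, SNHG29 and GAS5 all 3 NELFE libraries lay above both NELFB libraries, as they did for 12.3% of all genes, and for SNHG16 the nearest libraries were at 52.11 and 52.03 CPM. Without NELFE replicate 3, the median difference over the 10 hosts went from 0.136 to 0.058.

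**Figure D2:**
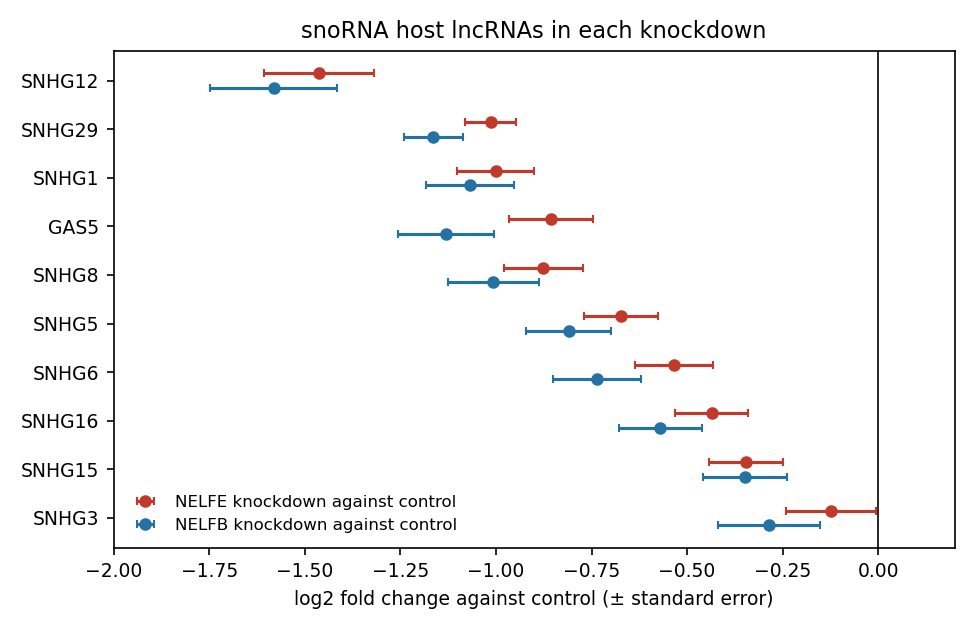
Log2 fold change against the 3 shared control libraries for each snoRNA host lncRNA, after NELFE knockdown (red, n = 3) and after NELFB knockdown (blue, n = 2), with bars for the standard error. All points lie below 0, from -1.58 for SNHG12 to -0.12 for SNHG3, and the NELFB point is at or left of the NELFE point in every gene.

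Reads assigned to the snoRNA genes examined were few. Mature snoRNAs lack a poly(A) tail, for which these libraries select, and the part of this in the low counts was not tested. Of the 24 snoRNA genes that GENCODE v44 places inside the hosts and that the table lists, 20 were listed at 0 reads in all 8 libraries. SNORD1B had 37 reads in all, and 3 could be tested. GENCODE v44 places none inside GAS5, so the GAS5 snoRNAs that RefSeq names were not examined here. Repeated entries of SNORD22 and SNORA16A are among the 24. All 20 listed at 0 lie wholly within exons of their host in GENCODE v44, and so does SNORD30, which had reads. SNORA73B, SNORD99 and SNORD1B lie outside host exons. Reads were counted on Gencode v24, where these overlaps may differ, and their part in the zeros was not tested. SNORD30, which lies in SNHG1 and guides ribosomal RNA methylation, is shown with its box C (TGATGA) and box D (CTGA) in capitals, as the one of the called snoRNAs that holds both strings of letters. It spans chr11:62853663-62853732 on the minus strand (GRCh38).
SNORD30: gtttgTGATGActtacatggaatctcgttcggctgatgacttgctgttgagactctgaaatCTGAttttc
The same box letters, searched on the strand of the gene with box C in front of box D, are found in 207 of 313 genes named SNORD (66.1%). SNORD30 had 47, 37 and 34 reads in control cells, 12, 12 and 18 after NELFE knockdown and 12 and 19 after NELFB knockdown. Its log2 fold change was -1.40 (SE 0.24, adjusted p = 0.00213, edgeR), beside -1.03 for its host SNHG1. SNORD99, inside SNHG12, had 38, 25 and 43 reads in control cells, 11, 12 and 15 after NELFE knockdown and 9 and 11 after NELFB knockdown. It fell by 1.58 on the log2 scale (SE 0.26, adjusted p = 0.00176, edgeR), beside -1.51 for SNHG12. In both snoRNAs all knockdown libraries were below all control libraries. SNORA73B, inside SNHG3, had 114, 134 and 135 reads in control cells, 75, 134 and 121 after NELFE knockdown and 104 and 132 after NELFB knockdown. These overlapped, and the log2 fold change of -0.16 was not called (SE 0.20, adjusted p = 0.596, edgeR), as for its host. Whether such reads come from the snoRNA or from unspliced host RNA cannot be told apart here.

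Genes that share a promoter region with a host, or overlap its exons, did not follow one direction. SLC3A2, the heavy chain of amino acid transporters, starts 51 bases from SNHG1 on the other strand. It fell from 237 ± 12.04 CPM in control cells to 168 ± 12.8 CPM after NELFE knockdown and 163 ± 6.52 CPM after NELFB knockdown, with a combined log2 fold change of -0.51 (SE 0.067, adjusted p = 0.000547, edgeR). ZBTB37, a zinc finger protein gene that starts 93 bases from GAS5, fell from 34.2 ± 5.65 CPM to 21.9 ± 3.40 and 23.4 ± 2.03 CPM (log2 fold change -0.61, SE 0.12, adjusted p = 0.00499, edgeR). Both changes were smaller than those of the hosts, -1.03 for SNHG1 and -0.96 for GAS5.
LRRC75A, on the strand opposite SNHG29 with 500 bases of shared exon, was the only one of these genes called higher in the combined comparison. It went from 2.37 ± 0.508 CPM to 4.23 ± 0.569 after NELFE knockdown and 4.29 ± 0.566 CPM after NELFB knockdown (log2 fold change 0.84, SE 0.18, adjusted p = 0.00651, edgeR). The counting used no strand, and the shared bases are those of GENCODE v44, which may differ from the Gencode v24 models that were counted. The part of the overlap in the change of LRRC75A was not tested. SNHG3 shares exon bases on the same strand with RCC1, the nucleotide exchange factor of the GTPase Ran. RCC1 is itself among the protein-coding genes that carry a snoRNA within them. Its change was -0.24 on the log2 scale (edgeR, adjusted p = 0.135). Without control replicate 1 its change was -0.37 and was called lower.
The other partners given here were not called in the combined comparison. TRNAU1AP, beside SNHG12, had a log2 fold change of 0.009 (SE 0.091, adjusted p = 0.953, edgeR), against -1.51 for SNHG12. PRSS12, a serine protease gene that overlaps SNHG8, was at 0.004 (SE 0.18, adjusted p = 0.99, edgeR). In the combined comparison no decrease beside their host was detected for these 2 genes. PRSS12 rested on NELFE replicate 3, which held 6440 reads against 3945 and 3845 in the other NELFE libraries. Without it, PRSS12 was called lower after NELFE knockdown, at -0.42. MCMDC2, which overlaps SNHG6, was at -0.51 (edgeR, adjusted p = 0.067) and was called after NELFB knockdown (-0.74, adjusted p = 0.0453, edgeR), a call that 8 of the alternatives did not give. GAS5-AS1 and PKMP3 had 0.62 and 0.85 (adjusted p = 0.111 and 0.0807, edgeR), and both were called higher without NELFE replicate 3. ENSG00000267546, beside SNHG16, was near the detection limit with 68 reads in all, and ENSG00000271793, which overlaps SNHG5, had 0.

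**Figure D3:**
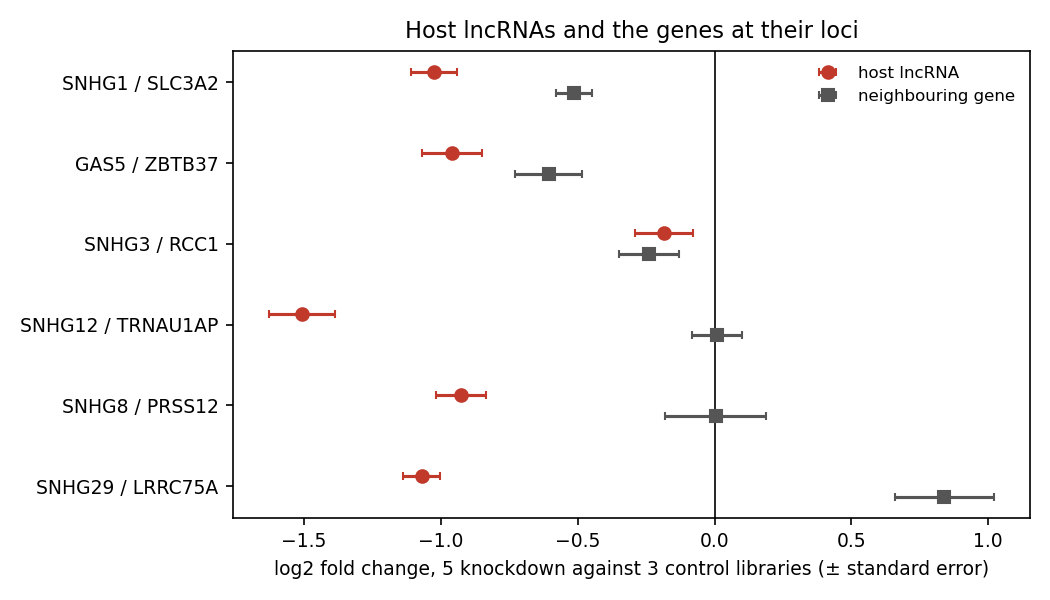
Combined log2 fold change (5 knockdown against 3 control libraries, bars for the standard error) of host lncRNAs (red circles) and of a gene at the same locus (grey squares). SLC3A2 and ZBTB37 lie left of 0 but closer to it than their hosts, TRNAU1AP and PRSS12 lie at 0, and LRRC75A lies right of it.

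Among other snoRNA host lncRNAs, calls went to the lower side. Of 19 listed, 17 were tested in the combined comparison, 10 were called lower and 0 higher (12.7% and 13.3% of all genes), with a median log2 fold change of -0.43. ZFAS1, host of SNORD12 genes, fell from 45.9 ± 3.10 CPM to 25.4 ± 2.20 CPM after NELFE and 24.8 ± 1.495 CPM after NELFB knockdown (log2 fold change -0.87, SE 0.080, adjusted p = 0.000102, edgeR). SNHG32 fell from 106 ± 7.08 CPM to 58.2 ± 5.75 and 59.2 ± 0.353 CPM (-0.85, SE 0.074, adjusted p = 7.3e-05, edgeR), and SNHG26 had a change of -0.80 (SE 0.14, adjusted p = 0.00265, edgeR). ZFAS1, SNHG32 and SNHG26 had the largest called decreases at an average log2 CPM of 1 or more. SNHG25, which averaged less and had 247 reads in all, had the largest decrease of the list (-1.62, SE 0.22, adjusted p = 0.000689, edgeR). SNHG20 was at 0.11 (SE 0.12, adjusted p = 0.538, edgeR). The number called lower was 6 without control replicate 2, NELFE replicate 1 or NELFB replicate 1, and no gene of the list was called higher in any of these fits. Among all 2142 tested lncRNAs outside the 10 hosts, which include genes of this list, 103 were called lower and 318 higher. Their median was 0.11, where 12.7% of all genes were called lower and 13.3% higher. Taken separately, 6 of 18 tested were called lower after NELFE knockdown and 8 of 18 after NELFB knockdown, where 7.04% and 8.88% of all genes were. With single libraries left out these counts ranged from 4 to 9 and from 3 to 11, and the 3 came without NELFB replicate 1.

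Protein-coding genes that carry a snoRNA within them had more lower than higher calls. Of 206 tested, 45 were called lower and 19 higher, with a median of -0.09, where 12.7% and 13.3% of all genes were called. Where the log2 CPM averaged 1 or more, the largest decreases were those of CSKMT, a citrate synthase methyltransferase gene (-1.07, SE 0.19, adjusted p = 0.00238, edgeR), RABGGTB, a subunit of Rab geranylgeranyl transferase (-0.84, SE 0.11, adjusted p = 0.000588, edgeR) and KCNC4, a potassium channel gene (-0.72, SE 0.16, adjusted p = 0.00836, edgeR). The largest increases above the same level were those of ITGB8, an integrin subunit (1.23, SE 0.27, adjusted p = 0.0087, edgeR), MAGED2 (0.71, SE 0.097, adjusted p = 0.000695, edgeR) and RAB30 (0.68, SE 0.14, adjusted p = 0.00616, edgeR). With single libraries left out, the count called lower ranged from 23 to 61 and the count called higher from 11 to 22. Both were lowest without control replicate 2, at 23 and 11. Without NELFB replicate 1, control replicate 3 or NELFB replicate 2, 26, 27 and 29 were called lower, and 12 were called higher without NELFE replicate 1 or NELFB replicate 1. In the separate comparisons 23 of 208 were called lower after NELFE knockdown and 37 of 208 after NELFB knockdown (7.04% and 8.88% of all genes), with 8 and 17 called higher (7.92% and 10.6%). After NELFE knockdown, leaving out single libraries gave 9 to 42 lower calls, with 9 without NELFE replicate 1 or 2, 12 without control replicate 2, 36 without NELFE replicate 3 and 42 without control replicate 1. After NELFB knockdown it gave 5 to 65, with 5 and 10 without NELFB replicates 1 and 2, 19 without control replicate 2, 24 without control replicate 3 or NELFE replicate 2 and 65 without control replicate 1. Higher calls ranged from 3 to 13 after NELFE knockdown and moved by over 1.5 times without any single library except control replicate 1 and NELFB replicate 2. They ranged from 3 to 19 after NELFB knockdown and moved by as much without any single library except control replicate 1 and NELFE replicate 3.

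Most ribosomal protein genes opened with a run of pyrimidines above, and their calls also went to the lower side. Of 79 tested, 48 were called lower and 0 higher (12.7% and 13.3% of all genes), with a median log2 fold change of -0.26 against -0.83 for the 10 hosts. Among these genes, which are those named RPL, RPLP or RPS with a number and so do not include RPSA (-0.68, adjusted p = 0.000756, edgeR, a protein-coding snoRNA host), RPL36A had the largest decrease (-0.74, SE 0.12, adjusted p = 0.00181, edgeR), followed by RPL41 (-0.65, SE 0.15, adjusted p = 0.0107, edgeR) and RPL12 (-0.60, SE 0.060, adjusted p = 0.000132, edgeR). Of 12 further tested genes of translation known to carry a TOP start, 5 were called lower and 0 higher (12.7% and 13.3% of all genes), with NPM1, a nucleolar chaperone (-0.36), HNRNPA1, a splicing regulator (-0.31), and PABPC1, the cytoplasmic poly(A) binding protein (-0.28), showing the largest decreases (adjusted p = 0.00979, 0.00773 and 0.0074, edgeR). EEF1A1, a translation elongation factor, was at -0.05 (SE 0.072, adjusted p = 0.637, edgeR). The TOP count was 3 without control replicate 2 or NELFE replicate 2. For the ribosomal protein genes the counts called lower were 35 of 79 after NELFE knockdown and 41 of 79 after NELFB knockdown, and for the TOP genes 3 and 2 of 12, where 7.04% and 8.88% of all genes were. With single libraries left out, the ribosomal protein count ranged from 10 to 39 after NELFE knockdown, with 10 and 11 without NELFE replicates 1 and 2, 14 and 20 without control replicates 2 and 3 and 23 without NELFB replicate 1. After NELFB knockdown it ranged from 6 to 46, with 10 and 6 without NELFB replicates 1 and 2 and 24 and 27 without control replicates 2 and 3. The TOP count after NELFE knockdown was 1 without any single library except control replicate 1 and NELFE replicate 3, where it was 3. After NELFB knockdown it ranged from 0 without either NELFB library, and 1 without control replicate 2 or 3, to 4 without NELFE replicate 3 and 5 without control replicate 1.

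Proteins that bind snoRNAs were called lower or not called. Of the 8 core proteins of snoRNA particles, 3 were called lower and 0 higher (12.7% and 13.3% of all genes), with a median of -0.20. Among the box C/D proteins, FBL, the methyltransferase itself, fell from 281 ± 6.45 CPM to 199 ± 11.7 CPM after NELFE and 192 ± 1.26 CPM after NELFB knockdown (log2 fold change -0.52, SE 0.060, adjusted p = 0.000254, edgeR). NOP56, a scaffold protein of the same particle, fell by 0.30 (adjusted p = 0.0258, edgeR), while NOP58 at -0.24 and SNU13 at -0.15 were not called (adjusted p = 0.117 and 0.195, edgeR). Among the box H/ACA proteins NHP2 fell by 0.32 (adjusted p = 0.00603, edgeR). DKC1, the pseudouridine synthase, was at -0.11, GAR1 at -0.16 and NOP10 at -0.09, and none of these was called (adjusted p = 0.442, 0.377 and 0.513, edgeR). Without NELFE replicate 3 the count of core proteins called lower was 5. After NELFE knockdown 2 of the 8 were called lower, and after NELFB knockdown 3 (7.04% and 8.88% of all genes). With single libraries left out the first count ranged from 1 to 3, with 1 without control replicate 2 or 3, NELFE replicate 1 or 2 or NELFB replicate 1. The second ranged from 1 to 5, with 1 without control replicate 3 or either NELFB library and 5 without control replicate 1.
Of 10 assembly factors of these particles, 4 were called lower and 0 higher (12.7% and 13.3% of all genes). NAF1 (-0.34), RUVBL1 (-0.31) and NUFIP1 (-0.28) had the largest decreases (adjusted p = 0.0325, 0.0149 and 0.0221, edgeR). Taken separately, 0 of 10 were called lower after NELFE knockdown and 2 of 10 after NELFB knockdown (7.04% and 8.88% of all genes). The first count was 2 without control replicate 1 or NELFE replicate 3. The second was 4 without control replicate 1, and 0 without control replicate 2 or 3 or either NELFB library. In the combined comparison none of the 10 was called without control replicate 2 or without control replicate 3.

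The decay pathway that degrades many spliced host RNAs showed no common direction. Of 14 NMD factors, 1 was called lower and 2 higher, with a median log2 fold change of -0.07. With 12.7% of all genes called lower and 13.3% higher, these counts are near the background and are no result about the pathway. EIF4A3, the helicase of the exon junction complex, had 0.39 (SE 0.12, adjusted p = 0.0359, edgeR), its partner RBM8A 0.34 (SE 0.090, adjusted p = 0.0179, edgeR) and SMG9, a regulator of the SMG1 kinase, -0.28 (SE 0.086, adjusted p = 0.031, edgeR). UPF1, the central helicase of the pathway, was at -0.16 (SE 0.069, adjusted p = 0.112, edgeR). Without control replicate 1, 3 of the 14 factors were called lower, and 0 were called lower without control replicate 2 or without any of 4 other single libraries. Of 6 other transcripts known as NMD targets, GADD45A (1.04, SE 0.29, adjusted p = 0.0265, edgeR) and GADD45B (0.56, SE 0.14, adjusted p = 0.0147, edgeR), both stress response genes, were called higher, and ATF4, the transcription factor of the integrated stress response, was called lower (-0.59, SE 0.071, adjusted p = 0.00035, edgeR). Without any one of the 3 control libraries, 1 of these targets was called higher. Of the NMD factors, 1 was called higher without control replicate 1 or 2 or NELFE replicate 1 or 2.

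**Figure D4:**
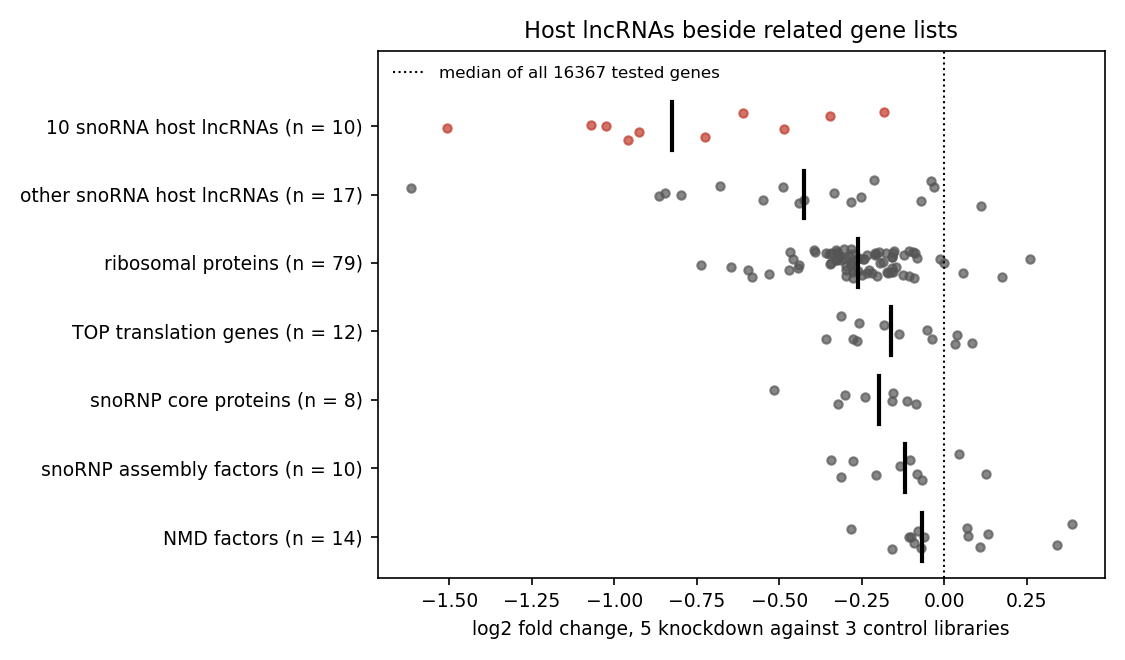
Combined log2 fold change (5 knockdown against 3 control libraries) of the 10 snoRNA host lncRNAs (red) and of the tested genes of 6 related lists (grey), with one point per gene, thick lines for list medians and a dotted line for the median of all 16367 tested genes. The median of the 10 hosts lies at -0.83, that of the other host lncRNAs at -0.43 and that of ribosomal proteins at -0.26.

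The genes most like the hosts over the 8 libraries were looked for among the 10449 genes whose log2 CPM averaged at least 3, by the root mean square difference between a gene's centred log2 CPM and the mean centred profile of the 10 hosts. The hosts' profile was 0.40, 0.52 and 0.56 in the control libraries, -0.35, -0.31 and -0.07 after NELFE knockdown and -0.40 and -0.35 after NELFB knockdown. TUBA1C, an alpha tubulin gene, was closest with a difference of 0.055, followed by BNIP1, a vesicle fusion protein gene (0.060), DCPS, the scavenger decapping enzyme (0.065), CDC20, an activator of the anaphase-promoting complex (0.070), and TRIM14 (0.072). Of the hosts themselves SNHG5 was the closest to the mean profile (0.047) and SNHG12 and SNHG3 the farthest (0.359 and 0.303).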

How the data were processed

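The authors deposited unnormalized counts per gene, from single-end reads of polyadenylated RNA (TruSeq, HiSeq 2500), checked with FastQC 0.11.6, aligned to GRCh38 with STAR 2.5.4a and counted on Gencode v24 without strand information. Reads that overlap several genes, or map to several places, are not counted. The replicates of each knockdown are described as independent biological ones; for the control this is not given in the sources used here, so p-values measure the spread between these samples.

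Symbols and exons came from GENCODE v44 by Ensembl identifier (99.9% of counts matched), promoter windows and snoRNA names from RefSeq on GRCh38.p14, which held a start for 8 of the 10 hosts. No sequence was printed for SNHG6, and SNHG6 was left out of the search for start runs. Testing used edgeR 4.0.16 (R 4.3.3) with the filterByExpr filter, TMM scaling, robust glmQLFit, glmQLFTest and Benjamini-Hochberg adjusted p-values over all tested genes. The combined comparison is a fit of 2 groups, and the separate comparisons come from a model of 3 groups. Wilson intervals are at 95%. No 2 libraries were copies of each other. The procedure was tested on simulated data.

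The members and lists were chosen with earlier results of these data known. Some items that meet the rules are not reported here. Named genes are all members, knockdown targets and partners (exon overlap, or a start within 1000 bases). So are the 3 largest called changes in each direction per list whose log2 CPM averaged at least 1, plus all core proteins and UPF1. EEF1A1, SNHG20, SNHG25 and the NMD targets and markers named for their values were chosen after these were seen. The alternatives were DESeq2 1.42.0, its size factors in edgeR, no filter, a replicate block, a minimum of 10 counts per library, a model of 3 groups, only the libraries of a comparison, a prior count of 2, another transcript length, a wider start window and each library left out. RefSeq starts were added after the data were seen.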

Additional observations from a re-analysis of the deposited data

Results flagged for a closer look

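Among the protein-coding genes that carry a snoRNA, ST8SIA2, a sialyltransferase gene, differed between the knockdowns. Its level after NELFE knockdown was above that after NELFB knockdown by 4.93 on the log2 scale (edgeR, adjusted p = 3.9e-06). ST8SIA2 was at 10.3 ± 1.55 CPM in control cells, 12.3 ± 1.70 after NELFE knockdown and 0.399 ± 0.0810 CPM after NELFB knockdown. Against control it was called lower after NELFB knockdown (-4.67, adjusted p = 5.81e-06, edgeR) and was not called after NELFE knockdown (0.25). None of the 10 host lncRNAs was called different between the knockdowns by this test.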

How the results depend on the processing

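All 150 log2 fold changes of the 10 hosts under the 15 alternatives were negative in each of the 3 comparisons with control, from -1.61 to -0.13 in the combined comparison, -1.63 to -0.009 in the NELFE and -1.68 to -0.17 in the NELFB knockdown. With single libraries left out, 8 to 10 hosts were called lower in the combined comparison and 7 to 9 in each knockdown, where SNHG15 and SNHG16 lost calls. SNHG15 was also not called after NELFE knockdown with only the libraries of that comparison, or after NELFB knockdown with at least 10 counts in every library. SNHG3 was called in the NELFB knockdown with no filter.
Other counts moved more. With single libraries left out, genes called lower ranged from 1328 to 2599 in the combined comparison, from 429 to 1503 in the NELFE and from 223 to 2098 in the NELFB knockdown, and genes that differed between the knockdowns from 27 to 78. The combined counts called lower were 6 to 10 for the other host lncRNAs, 2 to 5 for core proteins, 0 to 4 for assembly factors, 0 to 3 for NMD factors, 3 to 6 for TOP genes and 23 to 61 for protein-coding hosts. Assembly factors had 2 lower calls with no filter, and 1 snoRNA was called with at least 10 counts in every library, where SNORD99 is not tested. The knockdowns differed at 90 genes with DESeq2 and 161 with no filter. Causes were not tested.
Same-numbered replicates did not all deviate together (correlations of 0.299, 0.05 and 0.486 between control and NELFE, -0.021 and -0.021 between control and NELFB, 0.126 and 0.216 between the knockdowns), so the numbers were not taken to pair the samples. With the replicate block, 2355 genes were called lower in the NELFE and 2312 in the NELFB knockdown, 195 differed between the knockdowns, and 9 of 10 hosts were called in each comparison with control. Each control library correlated best with its own NELFE number, a hint from the data only.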
